A study of Homo sapiens with 21 samples.

Results

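The interferon-stimulated genes are 32 genes that cells switch on when an interferon binds its receptor. They were followed in MCF10A, an immortalised line of human mammary epithelial cells that does not form tumours, over 8 h of stimulation with epidermal growth factor (EGF). The members were chosen by name, as the genes IFIT1, IFIT2, IFIT3, IFIT5, ISG15, ISG20, MX1, MX2, OAS1, OAS2, OAS3, OASL, STAT2, IRF1, IRF7, IRF9, IFI6, IFI27, IFI35, IFI44, IFI44L, IFIH1, CXCL10, CXCL11, TAP1, PSMB8, PSMB9, GBP1, IFITM1, BST2, XAF1 and SAMD9. All 32 had probesets that the platform annotation names with that gene alone, 527 probesets in all. Of the 32, 29 kept at least 3 probesets above a floor on dim signal and were tested among 16614 genes, while IFIT3, CXCL10 and CXCL11 kept only 2 probesets each.

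Each of 21 exon arrays measured total RNA of MCF10A cells, 3 biological replicates at each of 7 times. The EGF groups were cells harvested 20, 40, 60, 120, 240 and 480 min after EGF at 20 ng/ml, and the untreated group was cells harvested at 0 min. All groups, the untreated included, had spent 24 h in medium without EGF and 24 h in starvation medium with 1% horse serum. No later time had arrays without EGF, so EGF cannot be told apart from time after the change of medium or from handling, and the cells are a single line. The labels call the arrays biological triplicates and say no more of how the cultures were kept apart.

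Interferons bind surface receptors whose JAK kinases phosphorylate STAT proteins. After a type I or type III interferon, a complex that holds STAT2 and IRF9 binds a promoter element called the interferon-stimulated response element (ISRE), and after interferon gamma STAT pairs bind another, the gamma-activated site (GAS). The genes so switched on restrict viruses, mark cells for T cells, or carry the signal itself, and many epithelial cells hold a low level of them without added interferon.

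The promoters of the members that changed are shown first, because the same 2 elements tie the list together. RefSeq windows of 300 bases (250 before and 50 after the start, GRCh38.p14) were found for 27 of the 32 members. The first window of each member was read. The members were listed as interferon targets, so the shares given here describe the list and test nothing. The ISRE letters, GAAA then any 2 bases then GAAA, searched on both strands, were in 18 of the 27 windows (66.7%), against 3.57% of all 35116 windows. The GAS letters TTCNNNGAA, which read alike on both strands, were in 8 of 27 (29.6%), against 7.66% of all windows. Below are the 250 bases before the start of 7 genes, 5′ to 3′ along the gene, with matches to either set of letters in capitals (an ISRE on the opposite strand reads TTTC, any 2 bases, TTTC). The first 4 genes ended the series below 0 min and hold an ISRE match, and STAT2 ended below 0 min and holds neither. OAS1 and IRF1 were higher at some times and hold a GAS match. Among members not called in the fit used below, ISRE matches were also in IFIT5, ISG15, ISG20, MX1, OAS3, IFI6, IFI27, IFIH1, TAP1, IFITM1, BST2 and SAMD9. GAS matches were in IRF9, IFI27, IFI35, IFITM1 and BST2. Of the members not tested, IFIT3 and CXCL10 held an ISRE match and CXCL11 a GAS match. OASL, called higher, had no window. The ISRE letters require exactly 2 bases between the GAAA runs, so the closer pair gaaacgaaa near the start of OAS1 is not marked. Whether the letters go with direction was not tested.
IFIT1, chr10:89392373-89392622, plus strand: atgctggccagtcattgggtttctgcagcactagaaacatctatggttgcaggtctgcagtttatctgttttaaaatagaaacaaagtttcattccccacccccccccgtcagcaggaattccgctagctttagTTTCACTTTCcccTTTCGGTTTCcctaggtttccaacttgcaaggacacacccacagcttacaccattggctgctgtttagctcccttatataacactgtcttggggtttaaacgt
IFI44, chr1:78649539-78649788, plus strand: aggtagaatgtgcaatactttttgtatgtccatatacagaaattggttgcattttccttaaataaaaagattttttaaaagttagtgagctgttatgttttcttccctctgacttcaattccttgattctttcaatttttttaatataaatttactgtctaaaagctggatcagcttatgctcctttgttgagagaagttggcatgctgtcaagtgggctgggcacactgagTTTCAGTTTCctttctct
IFI44L, chr1:78620198-78620447, plus strand: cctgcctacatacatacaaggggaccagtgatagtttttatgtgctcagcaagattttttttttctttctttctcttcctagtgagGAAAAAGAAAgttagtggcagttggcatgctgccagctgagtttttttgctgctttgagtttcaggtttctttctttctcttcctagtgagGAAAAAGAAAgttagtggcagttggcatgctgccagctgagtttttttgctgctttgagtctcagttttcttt
GBP1, chr1:89065209-89065458, minus strand: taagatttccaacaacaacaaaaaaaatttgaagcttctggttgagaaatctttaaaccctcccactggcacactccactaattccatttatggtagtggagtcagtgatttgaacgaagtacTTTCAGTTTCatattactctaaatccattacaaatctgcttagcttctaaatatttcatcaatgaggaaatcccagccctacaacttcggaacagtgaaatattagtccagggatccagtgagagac
STAT2, chr12:56360108-56360357, minus strand: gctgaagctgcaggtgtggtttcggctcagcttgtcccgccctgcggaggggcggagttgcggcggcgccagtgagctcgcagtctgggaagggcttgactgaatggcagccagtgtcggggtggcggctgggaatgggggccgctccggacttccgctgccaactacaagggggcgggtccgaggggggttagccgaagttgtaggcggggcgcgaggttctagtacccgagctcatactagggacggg
OAS1, chr12:112906712-112906961, plus strand: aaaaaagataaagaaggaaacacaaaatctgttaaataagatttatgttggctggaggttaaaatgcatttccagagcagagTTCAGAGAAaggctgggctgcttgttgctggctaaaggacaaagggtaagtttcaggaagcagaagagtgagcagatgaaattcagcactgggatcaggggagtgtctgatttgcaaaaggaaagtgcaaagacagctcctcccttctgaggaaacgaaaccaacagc
IRF1, chr5:132490774-132491023, minus strand: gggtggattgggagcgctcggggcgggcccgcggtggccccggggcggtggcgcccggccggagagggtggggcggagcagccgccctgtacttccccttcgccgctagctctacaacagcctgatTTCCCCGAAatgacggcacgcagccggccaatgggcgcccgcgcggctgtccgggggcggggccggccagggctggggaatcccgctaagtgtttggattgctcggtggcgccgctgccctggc
In IFIT1 the matches lay at bases -116 to -107 and -103 to -94 before the start, in IFI44 at -18 to -9, and in GBP1 at -127 to -118. IFI44L holds the same 10 letters at -164 and again at -73, within a stretch that is repeated in its promoter. The GAS match lay at -168 to -160 in OAS1 and at -124 to -116 in IRF1. PSMB8, PSMB9 and XAF1 held neither set of letters in their windows, as in STAT2. A match describes letters and was not measured as a bound site.

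Levels below are log2(intensity + 16), taken as the median over a gene's kept probesets, and changes are EGF time minus 0 min on that scale with limma's standard error (3 and 3 arrays). This scale understates the change of dim genes. Calls below mean that limma's p, after Benjamini-Hochberg adjustment over all 16614 genes, was under 0.05, and the values after ± beside means are SDs. FOS, the immediate early gene, was 4.89 ± 0.21 higher at 40 min (adjusted p = 7.25e-13, limma). All 5 genes fixed as an EGF check passed the test over all times. They were listed with earlier results of these data known, and here too EGF cannot be told apart from handling. Replicates of a time correlated at 0.944 to 0.988. The arrays also differed in an index of signal in named probesets (the gap in median log2 between probesets with a gene name and those without), which averaged 1.31 ± 0.06 at 480 min and between 1.27 and 1.32 at all EGF times, against 1.24 ± 0.02 at 0 min (SD, n = 3). The values with the index as a covariate stand beside the results they change, and those without the arrays farthest in index are given with the other alternatives. Of the white blood cell markers, 4 of 7 could be tested and none passed the test over all times, and their summed intensity was 201 to 218 at 480 min and 206 to 244 at 0 min. Fibroblast markers, 5 of 6 tested, summed to 388 to 424 at 480 min and 488 to 548 at 0 min, with COL1A1 called lower. Basal markers were tested for 9 of 11, at gene means of 9.18 to 12.46, and at 480 min 2 were called higher, LAMB3 by 0.88 ± 0.10 and ITGA6 by 0.75 ± 0.17. Luminal markers, 8 of 8 tested, had gene means of 5.64 to 9.93, and at 480 min KRT18 (0.75 ± 0.11) and FOXA1 (0.43 ± 0.11) were called higher and GATA3 (-1.02 ± 0.10) and ERBB3 (-0.43 ± 0.10) lower. The part of the marker genes in the results was not tested.

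The list did not move one way. Over all times, 12 of the 29 tested members passed limma's F-test (41.4%), against 27.5% of all genes. Against 0 min, none was called at 20 min, when 6 had an unadjusted p under 0.05 and 0.981% of all genes were called. IRF1 was called at 40 min, where 2.23% of all genes were called, and IRF1 and OASL at 60 min, where 5.8% were (4.82% called higher). At 120 min OASL, GBP1 and OAS1 were higher and STAT2 lower, which is 13.8% of the members beside 14.4% of all genes (11.2% called higher and 3.21% lower). At 240 min OAS1 and OASL were higher and IFIT1, STAT2, IFI44L and IFI44 lower, 20.7% of the members beside 19.7% of all genes (13.5% called higher and 6.21% lower). At 480 min OAS1 was higher and IFIT1, STAT2, IFI44L, IFI44 and GBP1 lower, 20.7% beside 22.6% of all genes (15.5% called higher and 7.11% lower). The share of members called was thus near that of all genes at the 3 later times. Between successive times, no member was called from 20 to 40 min (0.572% of all genes), from 40 to 60 min (0.229%) or from 120 to 240 min (1.54%), where 4, 2 and 4 members had an unadjusted p under 0.05. OAS1 and IRF1 were called from 60 to 120 min (3.49% of all genes) and GBP1 from 240 to 480 min (1.47%).

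The median change of the 29 members was 0.07 at 20 min, 0.08 at 40 min, 0.02 at 60 min, 0.06 at 120 min, -0.02 at 240 min and -0.07 at 480 min. Over all genes the medians at these times were 0.02, 0.02, 0.03, 0.04, 0.02 and 0.05. At 480 min 19 of the 29 members lay below their 0 min level (65.5%), as did 41.8% of all genes. In 10 members the 3 arrays of 480 min all lay below the 3 of 0 min, a pattern seen in 12.7% of all genes, and in 2 members they all lay above, seen in 21.6%.

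**Figure D1:**
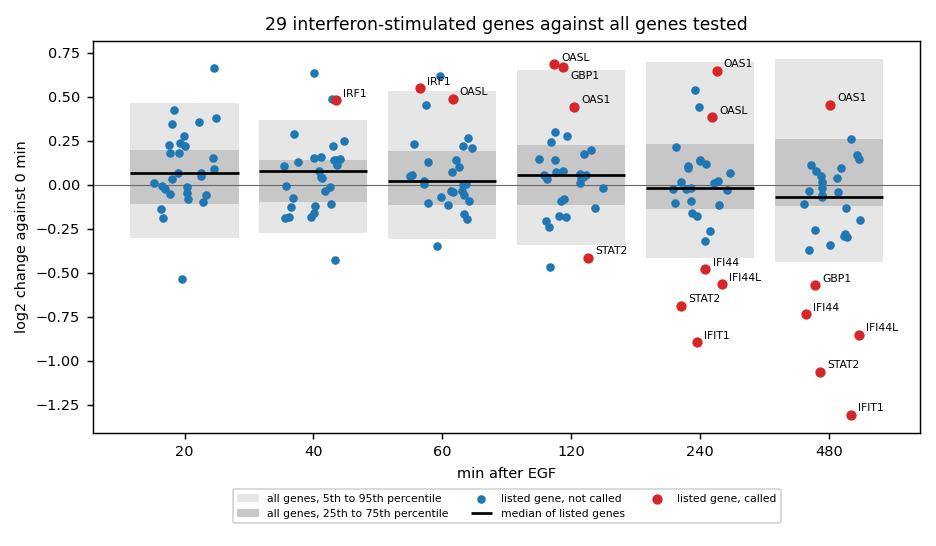
Log2 change against 0 min (y axis) of the 29 tested interferon-stimulated genes at each time in min after EGF (x axis), with called genes in red and named, other members in blue, the members' median as a black line, and the range of all genes as grey bands. The called members are above 0 at 40 and 60 min, on both sides at 120 and 240 min, and mostly below at 480 min, where IFIT1 is lowest at -1.31.

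STAT2, a partner of IRF9 in the complex that binds the ISRE, was lower than at 0 min from 120 min on. STAT2 read 8.20, 7.78 and 7.95 at 0 min, 7.34, 7.59 and 7.75 at 120 min, 7.22, 7.24 and 7.41 at 240 min and 6.85, 6.82 and 7.07 at 480 min. All 9 arrays of 120 to 480 min lay below all 3 of 0 min, while the 9 arrays of 20 to 60 min, at 7.75 to 8.10, overlapped them. The mean was 6.91 ± 0.14 at 480 min and 7.98 ± 0.21 at 0 min (SD, n = 3), a change of -1.07 ± 0.13, or 2.09-fold lower on this scale (adjusted p = 2.3e-06, limma). At the earlier times the change was -0.42 ± 0.13 at 120 min (adjusted p = 0.0302) and -0.69 ± 0.13 at 240 min (adjusted p = 0.000443). At 480 min all 30 of the gene's probesets were below 0 min. The 120 min call was lost without replicate 1 or 3 of 0 min or replicate 1 or 2 of 120 min, with changes of -0.51 to -0.31 and an adjusted p of up to 0.17 over the 21 fits that each leave out 1 array. The calls at 240 and 480 min were made in all 21. No change of STAT2 between successive times was called in this fit. With the array index as a covariate the changes from 60 to 120 min (-0.38, adjusted p = 0.033) and from 240 to 480 min (-0.39, adjusted p = 0.042) were called. The partner of STAT2, IRF9, lay at 0.26 ± 0.14 from 0 min at 480 min and was not called, but without the floor on dim probesets that change was 0.39 ± 0.12 and called (adjusted p = 0.025).

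IRF1, a transcription factor that binds ISRE-like elements and is switched on by interferon gamma, was higher at 40 and 60 min. It read 5.92, 6.14 and 6.02 at 0 min, 6.62, 6.50 and 6.40 at 40 min, and 6.63, 6.50 and 6.59 at 60 min. The groups did not overlap at either time, and of the 3 arrays of 120 min, at 6.17, 6.002 and 6.07, 2 lay among those of 0 min and 1 above. The change was 0.48 ± 0.11 at 40 min (adjusted p = 0.0144) and 0.55 ± 0.11 at 60 min (1.46-fold, adjusted p = 0.00258). From 60 to 120 min it fell by 0.49 ± 0.11 on the log2 scale (adjusted p = 0.00892, limma), in a contrast where 3.49% of all genes were called. At 20 min the change was 0.43 ± 0.11 and missed the threshold (adjusted p = 0.0594), and it was called there without the floor on dim probesets (0.40, adjusted p = 0.04). At 60 min 21 of 26 probesets were above 0 min. The 40 min call was lost without replicate 1 or 3 of 0 min or replicate 1 of 40 min (0.42 to 0.54 over the 21 fits, adjusted p up to 0.091), with only the arrays of the 2 times (adjusted p = 0.085) and with a floor at the 75th percentile (0.24, adjusted p = 0.38). The fall after 60 min was lost without replicate 2 of 120 min (adjusted p = 0.058) and with only the arrays of the 2 times (adjusted p = 0.076). IRF7, which amplifies the type I interferon response, lay between -0.10 and 0.11 from 0 min and was not called.

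IFIT1, which binds viral RNA that lacks a host cap, had the largest change of any tested member over the kept probesets. It read 5.69, 6.26 and 5.92 at 0 min, 4.80, 5.28 and 5.11 at 240 min, and 4.60, 4.83 and 4.51 at 480 min. All 6 late arrays lay below those of 0 min, and the 12 arrays of 20 to 120 min, at 5.53 to 6.28, were spread around them. The change was -0.90 ± 0.18 at 240 min (adjusted p = 0.00122) and -1.31 ± 0.18 at 480 min, 2.48-fold lower (adjusted p = 1.78e-05, limma), with a 95% interval of -1.69 to -0.93. Its value rests on 4 of 11 probesets, all of which were lower at 480 min, and with the 7 dimmer ones included the change at 480 min was -0.78 ± 0.15 (adjusted p = 7e-04), smaller than the -1.07 ± 0.13 of STAT2 in that fit, and at 240 min it was -0.58 ± 0.15 (adjusted p = 0.0083). Its size moves with the constant added before the log, being -2.53 with 1 and -0.60 with 64 at 480 min, both called. All IFIT1 levels at 480 min lay below the floor of 5.18. That floor was set on probeset means over all arrays, so probesets dim at 480 min could pass through the earlier times. The rank of IFIT1 as the largest change therefore holds for the kept probesets only.

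IFI44 and IFI44L, neighbours on chromosome 1, followed IFIT1 at a smaller size. IFI44L read 5.82, 6.34 and 6.36 at 0 min, 5.57, 5.57 and 5.67 at 240 min, and 5.17, 5.25 and 5.53 at 480 min. The groups did not overlap, though replicate 1 of 0 min lay about 0.5 below the other 2. Its change was -0.57 ± 0.14 at 240 min (adjusted p = 0.00697) and -0.85 ± 0.14 at 480 min (adjusted p = 0.000142, limma). IFI44 read 5.51, 6.10 and 6.10 at 0 min, 5.32, 5.62 and 5.32 at 240 min, and 5.30, 5.00 and 5.20 at 480 min. It changed by -0.48 ± 0.16 at 240 min (adjusted p = 0.0418), where 1 array overlapped those of 0 min, and by -0.74 ± 0.16 at 480 min (adjusted p = 0.0021), where none did. At 480 min 18 of 21 IFI44L probesets and 16 of 18 IFI44 probesets were below 0 min. Without the floor on dim probesets IFI44L at 240 min was not called (-0.28, adjusted p = 0.21), and at 480 min it changed by -0.55 ± 0.14 (adjusted p = 0.0098). With the array index as a covariate IFI44 was also called at 120 min (-0.69 ± 0.15, adjusted p = 0.0031, against -0.47 and 0.0605 without it) and from 60 to 120 min (-0.57, adjusted p = 0.0094). The IFI44 call at 240 min was lost in 6 of the 21 fits that leave out an array, namely replicate 2 or 3 of 0 min, replicate 3 of 40 min, replicate 2 of 120 min, or replicate 1 or 3 of 240 min (-0.68 to -0.38 over the 21 fits, adjusted p up to 0.17).

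**Figure D2:**
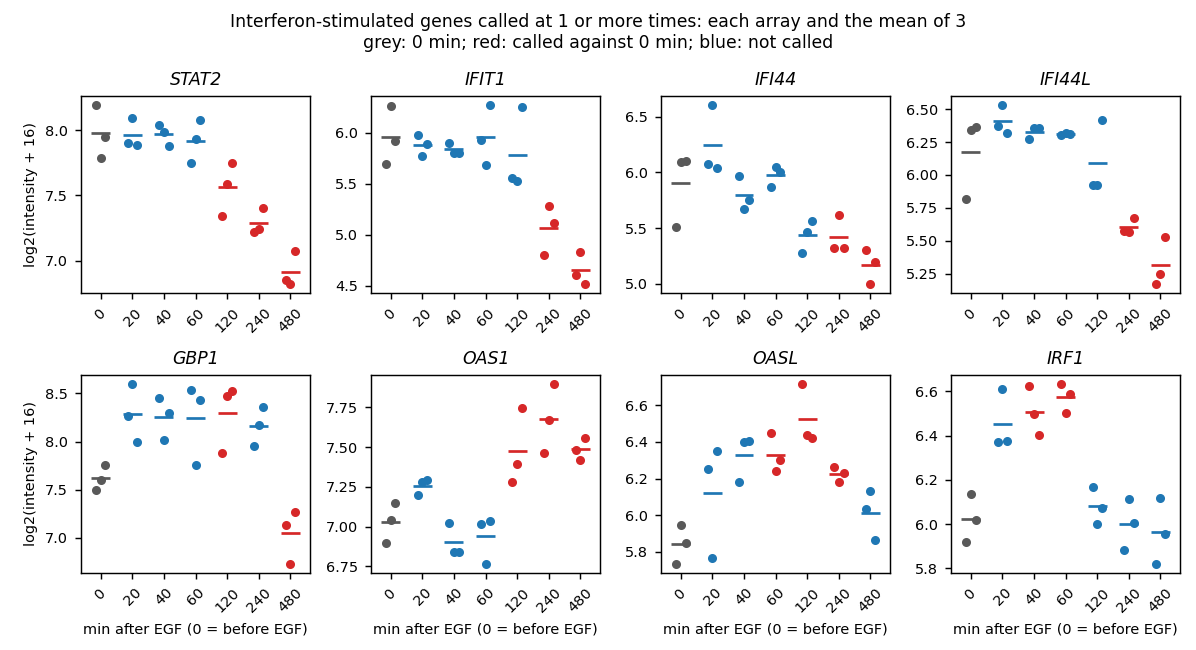
Level in log2(intensity + 16) (y axis) on each of the 21 arrays at each time in min after EGF (x axis, 0 is before EGF) for the 8 interferon-stimulated genes called at 1 or more times, with points for arrays, a bar for the mean of 3, red for times called against 0 min and grey for 0 min. STAT2, IFIT1, IFI44 and IFI44L end low, GBP1 is above its 0 min mean until 240 min and below at 480 min, OAS1 is high from 120 min, OASL has its highest mean at 120 min and IRF1 at 60 min.

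GBP1, a large GTPase best known from the response to interferon gamma, turned round between 240 and 480 min. It read 7.50, 7.60 and 7.75 at 0 min, 7.88, 8.47 and 8.52 at 120 min, 7.95, 8.17 and 8.35 at 240 min, and 7.14, 6.73 and 7.27 at 480 min. All arrays of 120 and 240 min lay above those of 0 min and all of 480 min below. The change was 0.67 ± 0.21 at 20 min (adjusted p = 0.121), 0.64 ± 0.21 at 40 min (adjusted p = 0.139), 0.62 ± 0.21 at 60 min (adjusted p = 0.0815) and 0.67 ± 0.21 at 120 min (1.59-fold, adjusted p = 0.0302). At 480 min it was -0.57 ± 0.21 (adjusted p = 0.0495), and from 240 to 480 min it fell by 1.11 ± 0.21 on the log2 scale (adjusted p = 0.00442, limma), where 1.47% of all genes were called. That last change was called in all 21 fits that leave out an array, and all 25 probesets of the gene were below 0 min at 480 min. The call at 480 min against 0 min was made in only 7 of the 21 (-0.68 to -0.41, adjusted p up to 0.2), being lost without any array of 0, 40 or 240 min, replicate 1 of 20 min, replicate 3 of 60 min, replicate 2 of 120 min, or replicate 1 or 2 of 480 min. With the array index as a covariate it was -0.90 ± 0.13 (adjusted p = 1.8e-05), the 120 min change was then 0.26 and not called (adjusted p = 0.23), and the 40 min change was 0.47 ± 0.12 and called (adjusted p = 0.03). The 120 min call was also lost without replicate 1 or 2 of 0 min or replicate 2 or 3 of 120 min (0.56 to 0.88, adjusted p up to 0.14). GBP family genes are close relatives, and how probes were kept from reading more than 1 of them is not given in the sources used here.

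OAS1, which makes the short oligoadenylates that activate RNase L, moved the other way and stayed up. It read 6.90, 7.04 and 7.15 at 0 min, 7.28, 7.39 and 7.75 at 120 min, 7.46, 7.67 and 7.90 at 240 min, and 7.48, 7.42 and 7.56 at 480 min. All 9 of these later arrays lay above all of 0 min, as did the 3 of 20 min, at 7.198, 7.28 and 7.29, while the 6 arrays of 40 and 60 min, at 6.77 to 7.03, did not. The change was 0.44 ± 0.13 at 120 min (adjusted p = 0.021), 0.65 ± 0.13 at 240 min (1.57-fold, adjusted p = 0.000847) and 0.46 ± 0.13 at 480 min (adjusted p = 0.0119, limma). From 60 to 120 min it rose by 0.53 ± 0.13 (adjusted p = 0.0178). At 240 min 15 of 19 probesets were above 0 min. The 120 min call was lost without replicate 1 or 2 of 0 min or replicate 3 of 120 min (0.31 to 0.54, adjusted p up to 0.15) and with the array index as a covariate (0.24, adjusted p = 0.15), with which the 480 min change was 0.29 ± 0.10 (adjusted p = 0.038). The 480 min call was lost without replicate 1 of 0 min or replicate 3 of 480 min (0.39 to 0.52, adjusted p up to 0.058), and the rise from 60 min without replicate 2 of 60 min or replicate 3 of 120 min (0.40 to 0.63, adjusted p up to 0.12).

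OASL, a relative of OAS1 that has lost the synthase activity, was higher in the middle of the series. It read 5.73, 5.94 and 5.85 at 0 min, 6.18, 6.40 and 6.40 at 40 min, 6.45, 6.24 and 6.30 at 60 min, 6.72, 6.44 and 6.42 at 120 min, and 6.26, 6.18 and 6.23 at 240 min. None of the 12 arrays of 40 to 240 min overlapped those of 0 min. The change was 0.49 ± 0.13 at 40 min (adjusted p = 0.0586), where it was called with the array index as a covariate (0.56 ± 0.11, adjusted p = 0.0036). It was 0.49 ± 0.13 at 60 min (adjusted p = 0.0301), 0.68 ± 0.13 at 120 min (1.61-fold, adjusted p = 0.000931), 0.38 ± 0.13 at 240 min (adjusted p = 0.0454) and 0.17 ± 0.13 at 480 min (adjusted p = 0.414, limma). At 120 min 9 of 11 probesets were above 0 min, and without the floor on dim probesets the 240 min change was 0.63 ± 0.12 (adjusted p = 0.00076). The 60 min call was lost without replicate 1 or 3 of 0 min or of 60 min (0.43 to 0.54, adjusted p up to 0.13), and the 240 min call in 12 of the 21 fits (0.33 to 0.43, adjusted p up to 0.15), any array of 0 or 240 min among them. The other synthases, OAS2 and OAS3, lay between -0.19 and 0.24 from 0 min and were not called.

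**Figure D3:**
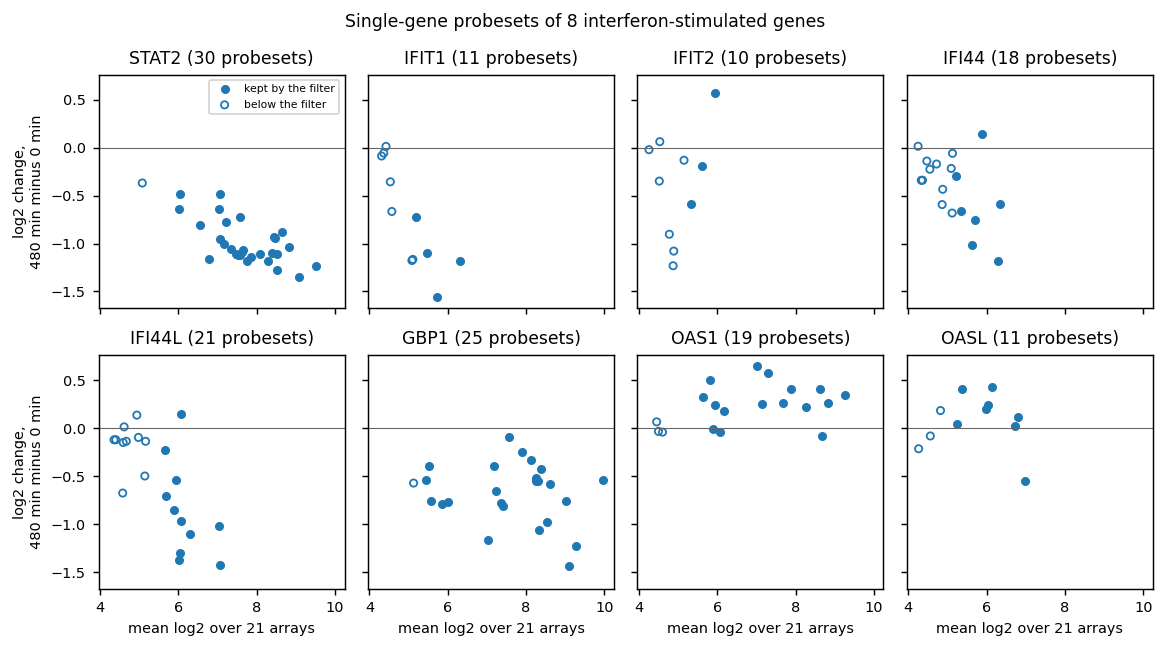
Change at 480 min against 0 min in log2 units (y axis) of each single-gene probeset against its mean log2(intensity + 16) over the 21 arrays (x axis) for 8 interferon-stimulated genes, with filled points for probesets kept by the floor on dim signal and open points for those below it. All probesets of STAT2 and GBP1 lie below 0, IFIT1 keeps 4 of 11, and in IFIT2 the lowest changes are those of open points.

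Passing the F-test without a call at any time were ISG15, a ubiquitin-like modifier, PSMB8, an immunoproteasome subunit, BST2, which tethers budding virus, and SAMD9, an antiviral factor. BST2 (F-test adjusted p = 0.0023) read 5.84, 5.87 and 5.92 at 480 min, against 6.25, 6.09 and 6.18 at 0 min, and its highest mean was that of 40 min, at 6.42 ± 0.20. Its arrays of 480 min lay below those of 0 min, with a change of -0.29 ± 0.11 (adjusted p = 0.067). PSMB8 (0.018) read 6.45, 6.94 and 6.57 at 0 min, 7.22, 7.01 and 7.10 at 60 min, and 6.40, 5.999 and 6.44 at 480 min. Its 60 min arrays all lay above, and its 480 min arrays all below, those of 0 min, by 0.45 ± 0.18 and -0.37 ± 0.18. SAMD9 (0.037) read 7.62, 7.98 and 8.03 at 0 min, 8.36, 8.35 and 8.25 at 240 min, and 7.72, 7.28 and 7.79 at 480 min. The difference of 480 from 240 min was -0.72 ± 0.19 (adjusted p = 0.059). ISG15 (0.037) read 6.16, 6.09 and 6.70 at 20 min, against 6.91, 6.69 and 6.96 at 0 min, a change of -0.54 ± 0.15 (adjusted p = 0.0978), and at 480 min it lay at 0.02 ± 0.15 from 0 min. Without the floor on dim probesets the 480 min change was -0.31 ± 0.21 in ISG15 and 0.02 ± 0.17 in BST2 (adjusted p = 0.35 and 0.96, limma). In the 21 fits that leave out an array, the F-test of BST2 was lost in none and that of PSMB8 in 1, without replicate 2 of 480 min. That of ISG15 was lost in 8, without replicate 1 or 3 of 0 min, 1 or 2 of 20 min, 2 of 120 min, 1 of 240 min, or 1 or 2 of 480 min. That of SAMD9 was lost in 9, without replicate 1 or 2 of 20 min, 3 of 40 min, 2 of 120 min, any of 240 min, or 1 or 2 of 480 min. BST2 and ISG15 also missed the F-test without the floor on dim probesets (adjusted p = 0.41 and 0.58), with the mean over probesets (0.11 and 0.36) and without the arrays farthest in index (0.07 and 0.41), ISG15 with the replicate block (0.059) and with 1 added before the log (0.054), and SAMD9 without the floor (0.078) and with the replicate block (0.05).

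With the array index as a covariate, 11 members were called at 480 min, where 26.8% of all genes then were. OAS1 was again the higher one, and PSMB8 (-0.64 ± 0.13), SAMD9 (-0.56 ± 0.13), IFIT5 (-0.39 ± 0.12), IFIH1 (-0.37 ± 0.13) and BST2 (-0.35 ± 0.12) joined the 5 lower ones named above. From 240 to 480 min PSMB8 (-0.55 ± 0.12) and SAMD9 (-0.76 ± 0.12) were then called lower, and from 120 to 240 min IFIT1 (-0.66 ± 0.17). The index itself was higher at the EGF times than at 0 min, so the covariate shares part of its variation with time.

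**Figure D4:**
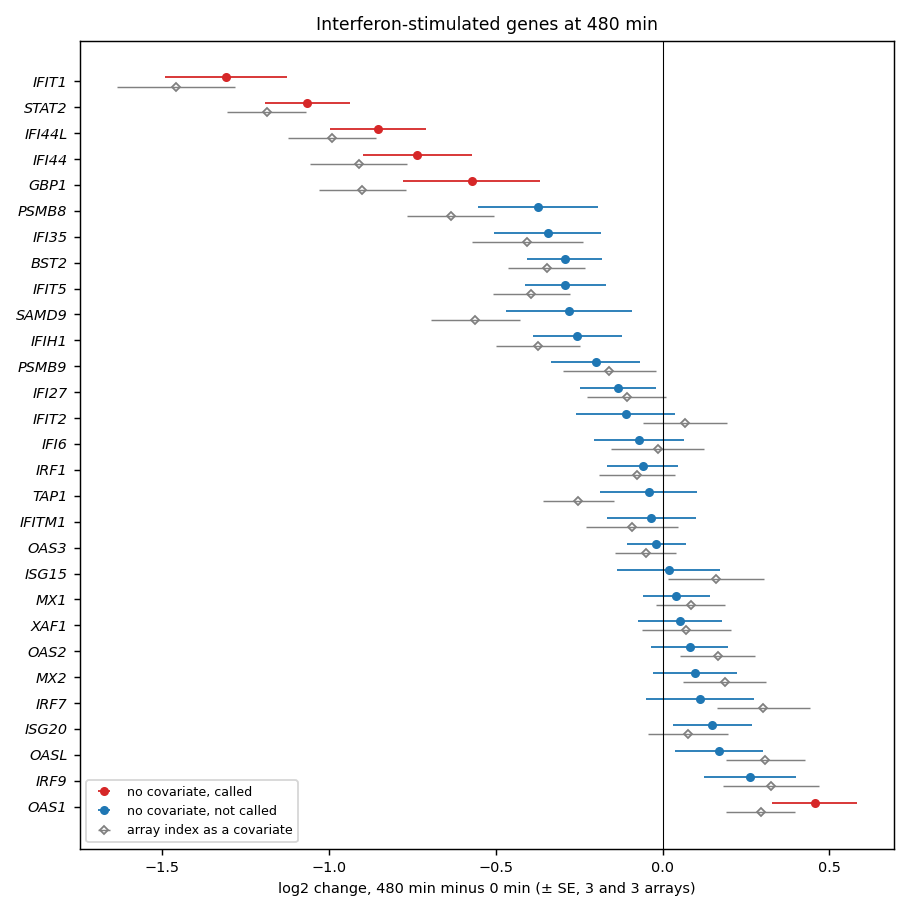
Log2 change at 480 min minus 0 min (x axis, bars are ± SE) of the 29 tested interferon-stimulated genes, ordered by change, with filled points for the fit without a covariate (red when called) and open points for the fit with the array index as a covariate. IFIT1 at -1.31 and STAT2 at -1.07 lie lowest and OAS1 at 0.46 highest, and GBP1, PSMB8 and SAMD9 lie further below 0 with the covariate.

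The other 17 tested members did not pass the F-test. IFIT2, a partner of IFIT1 in RNA binding, was called without the floor for dim signal and not with it, as was IRF9 above. Over its 3 kept probesets of 10 it read 5.39, 5.69 and 5.55 at 480 min, against 5.71, 5.59 and 5.65 at 0 min, a change of -0.11 ± 0.15. Over all 10 probesets it changed by -0.75 ± 0.14 at 120 min (adjusted p = 0.00085), -0.84 ± 0.14 at 240 min (adjusted p = 0.00021) and -0.75 ± 0.14 at 480 min (adjusted p = 0.00061). Taken probeset by probeset, the median change of IFIT2 was smaller, at -0.41, -0.24 and -0.27 at these times. At 480 min 8 of the 10 were below 0 min, and the 3 kept ones ran from -0.59 to 0.57. The viral RNA sensor IFIH1 lay at -0.26 ± 0.13 from 0 min at 480 min, IFI35 at -0.34 ± 0.16 and IFIT5 at -0.29 ± 0.12, and in these 3 genes the 480 min arrays lay below those of 0 min without a call. The dynamin-like GTPase MX1 lay 0.02 to 0.20 from 0 min, and its relative MX2 -0.11 to 0.10. TAP1, which carries peptides to class I molecules, lay at 0.23 from 0 min at 60 min and -0.04 at 480 min, and PSMB9, another immunoproteasome subunit, at 0.22 at 40 min and -0.20 at 480 min. The membrane protein IFITM1 reached 0.21 at 60 min, and IFI27 lay between -0.26 and -0.01 at all times. IFI6, ISG20 and XAF1 kept within -0.19 and 0.22. For the members not tested, the median over all probesets lay at 4.64 to 5.31 in IFIT3, 4.64 to 5.19 in CXCL10 and 4.39 to 5.10 in CXCL11 over the 21 arrays, where the floor was at 5.18.

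The genes around the list were then read from lists that the members do not enter. Of 21 interferon genes, 2 could be tested. IFNE, an epithelial type I interferon best known from the female reproductive tract, read 5.52, 5.17 and 5.33 at 0 min, 6.14, 6.82 and 7.21 at 120 min, and 6.27, 6.30 and 6.29 at 240 min. Its change was 1.38 ± 0.22 at 120 min (adjusted p = 0.000146, limma), 0.95 ± 0.22 at 240 min (adjusted p = 0.00413) and 0.56 ± 0.22 at 480 min (adjusted p = 0.0792), and both called times held in all 21 fits that leave out an array. The groups of 120 and 240 min lay above 0 min with no overlap. The 0 min levels of IFNE were near the floor of 5.18, which was set on probeset means over all arrays. Probesets dim at 0 min could thus pass through the later times. Of the 6 IFNE probesets 5 were kept, and all 6 were above 0 min at 120 and at 240 min. The other tested interferon gene, IFNL1, did not pass the F-test (adjusted p = 0.065).

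Of 10 tested receptor and JAK-STAT genes, 2 were called higher at 60 min (beside 4.82% of all genes), 3 at 120 min (11.2%), 3 at 240 min (13.5%) and 2 at 480 min (15.5%), and none lower at any time. IFNGR2, the signalling chain of the interferon gamma receptor, read 8.49, 8.68 and 8.55 at 480 min, against 7.65, 7.26 and 7.23 at 0 min. It was 1.19 ± 0.14 higher at 480 min (adjusted p = 1.35e-06, limma), with no overlap. IFNAR2, a chain of the type I receptor, was 0.55 ± 0.17 higher at 480 min (adjusted p = 0.0259), a call lost without replicate 1 or 2 of 0 min or replicate 1 or 3 of 480 min (adjusted p up to 0.17) and with the array index as a covariate (0.29, adjusted p = 0.082).

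Among 15 negative regulators, 5 passed the F-test (33.3%), beside 27.5% of all genes. At 60 min 2 were called higher, beside 4.82% of all genes. At 480 min 1 was called higher and 1 lower, beside 15.5% and 7.11%. SOCS2, an inhibitor of JAK signalling, was 0.88 ± 0.11 higher at 480 min (adjusted p = 3.99e-06), and its relatives SOCS3 and CISH were 0.51 ± 0.11 and 0.64 ± 0.13 higher at 60 min (adjusted p = 0.00748 and 0.00439), calls lost with a floor at the 75th percentile (0.34 and 0.31, adjusted p = 0.061 and 0.29). The phosphatase PTPN6 changed by -0.59 ± 0.11 at 480 min (adjusted p = 0.000283, limma).

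Of 14 tested sensors of foreign nucleic acid and their adaptors, 8 passed the F-test (57.1%), beside 27.5% of all genes. At 480 min 4 were called higher and 2 lower, beside 15.5% and 7.11% of all genes. TLR3, an endosomal sensor of double-stranded RNA, read 5.66, 5.32 and 5.86 at 480 min, against 6.48, 6.90 and 7.05 at 0 min, a change of -1.20 ± 0.17 (adjusted p = 2.99e-05). STING1, the adaptor of DNA sensing, read 7.89, 7.83 and 7.996 at 480 min, against 6.55, 7.11 and 6.73 at 0 min, a change of 1.11 ± 0.15 (adjusted p = 1.11e-05, limma). CGAS, the DNA sensor upstream of it, was 1.12 ± 0.22 higher (adjusted p = 0.000716). TICAM1, the adaptor of TLR3, was called higher at every time from 40 min, with its largest change of 0.96 ± 0.10 at 60 min (adjusted p = 4.55e-07).

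Among 46 other interferon-stimulated genes tested, 19 passed the F-test (41.3%), beside 27.5% of all genes, and at 480 min 4 were called higher and 5 lower, beside 15.5% and 7.11%. CD274, the checkpoint ligand PD-L1, read 6.91, 6.80 and 6.97 at 120 min, against 5.13, 5.03 and 5.00 at 0 min. Its change of 1.84 ± 0.11 (3.58-fold, adjusted p = 8.83e-11, limma) exceeded that of any tested member at any time on this scale. Its 0 min levels lay below the floor of 5.18. That floor was set on probeset means over all arrays, so probesets dim at 0 min could pass through the EGF times. CD274 was called at all 6 times, though at 20 min the call was lost without replicate 3 of 0 min or replicate 1 or 2 of 20 min (adjusted p up to 0.1). PARP12 was 0.86 ± 0.12 higher at 240 min, and ISG20L2 and TRIM21 were called higher at 120, 240 and 480 min, the last lost for TRIM21 without replicate 3 of 0 or of 480 min (adjusted p up to 0.067). TRIM22, an antiviral ubiquitin ligase, read 6.94, 7.08 and 7.31 at 480 min, against 8.29, 8.16 and 8.19 at 0 min, a change of -1.10 ± 0.11 (adjusted p = 2.56e-07). TNFSF10, the death ligand TRAIL, was -0.85 ± 0.18 from 0 min at 240 min (adjusted p = 0.00184). GBP2, a relative of GBP1, was not called up to 240 min and changed by -0.75 ± 0.25 at 480 min (adjusted p = 0.0365), a call lost without replicate 2 or 3 of 0 min or replicate 1 or 2 of 480 min (adjusted p up to 0.15). SAMD9L, the neighbour and relative of SAMD9, was 0.62 ± 0.13 higher at 20 min (adjusted p = 0.0169), a call lost without replicate 1 or 3 of 0 min or replicate 1 or 2 of 20 min (0.50 to 0.74, adjusted p up to 0.16) and without the floor on dim probesets (0.38, adjusted p = 0.14), and with a floor at the 75th percentile the change was -0.017. Of 19 tested antigen presentation genes 8 passed the F-test (42.1%), beside 27.5% of all genes. At 480 min 1 was called higher (CALR, 0.30 ± 0.09) and 1 lower (TAPBPL, -0.41 ± 0.11), beside 15.5% and 7.11% of all genes. The CALR call was lost without replicate 2 of 0 min or replicate 2 or 3 of 480 min (adjusted p up to 0.11).

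**Figure D5:**
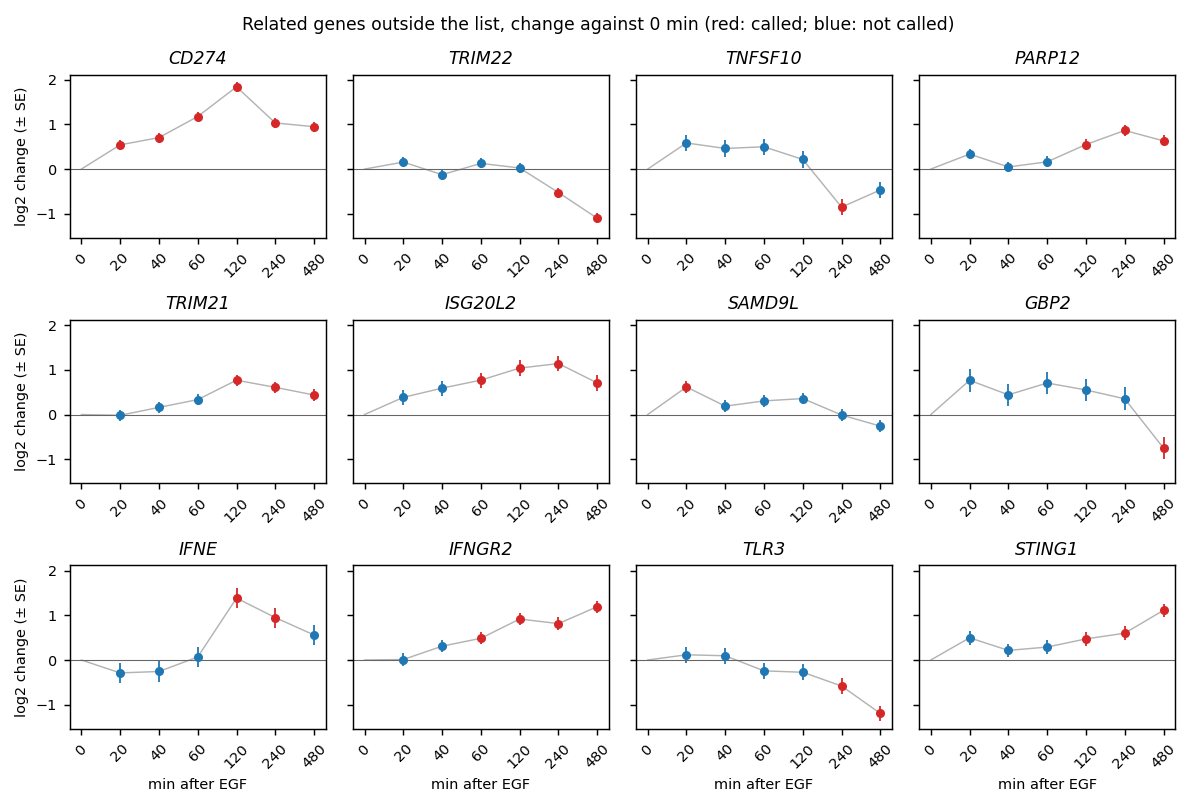
Log2 change against 0 min (y axis, bars are ± SE) over time in min after EGF (x axis) for 12 genes outside the member list, red where called and blue where not. CD274 is highest at 120 min, TRIM22 and TLR3 end below -1, IFNGR2 and STING1 end above 1, and GBP2 goes below 0 only at 480 min.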

How the data were processed

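As deposited, the values are linear intensities of 1384231 probesets on each of 21 arrays. The tools named are, per the submitters' processing notes, PLIER and version 1.1 of Affymetrix Expression Console, with roles and settings not given in the sources used here. Array medians of 20.4 to 20.6 intensity units show that the authors' values were level between arrays as deposited. Probesets were named by the platform annotation, with symbols updated through the RefSeq gene table.

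Values were taken as log2(intensity + 16). Probesets with a mean under 5.18 (the median of all probesets) were left out, and a gene was the median of at least 3 kept single-gene probesets. All 21 arrays entered a single limma 3.58.1 fit (R 4.3.3, with version 1.17.8 of data.table) with 1 mean per time, two-sided, and Benjamini-Hochberg adjustment within a contrast. The fit was tested on simulated data. The array number limits the precision.

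The members, lists and rules were chosen with earlier results of these data known. Members were described in full when they passed the F-test or a contrast, or were among the 3 largest changes at 480 min. Related genes described were taken from those that passed the F-test, up to 8 a list. PIAS1, RIGI, IKBKE, IRF5, TRAF3, ERAP1, ERAP2, PSME1, HLA-E, HLA-F and TAPBP also passed and are not given by value, so those described are a selection. IFIT2, IFIH1, IFI35 and IFIT5 and the other members given by value fall outside that rule, as do FOS as a check and COL1A1 as a marker. Promoters came from RefSeq (GRCh38.p14). Alternatives were another floor, gene summary, added constant, scaling, variance model, covariate, block and left-out arrays. Figures were drawn with matplotlib 3.10.9.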

Additional observations from a re-analysis of the deposited data

Results flagged for a closer look

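In 3 members the change against 0 min differed between neighbouring times by limma's test of the difference itself. OAS1 was 0.53 ± 0.13 higher at 120 min than at 60 min (adjusted p = 0.0178, 3 of 3 arrays above all 3 of 60 min). IRF1 at 120 min differed from 60 min by -0.49 ± 0.11 (adjusted p = 0.00892), with 3 of 3 arrays below. GBP1 at 480 min differed from 240 min by -1.11 ± 0.21 (adjusted p = 0.00442), again with 3 of 3 arrays below.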

How the results depend on the processing

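The members gave 22 calls over all contrasts. Under 12 alternatives, not counting single left-out arrays, 238 of 260 refitted calls held, 22 were lost and none changed sign, and 11 calls held under all that could be fitted, namely IFIT1 at 240 and 480 min, STAT2 at 240 and 480 min, IFI44 and IFI44L at 480 min, GBP1 from 240 to 480 min, OAS1 at 240 and 480 min, OASL at 120 min and IRF1 at 60 min. Calls lost and not given in the report were OASL at 60 min without a floor (0.37, adjusted p = 0.078), GBP1 at 120 and 480 min without a floor (adjusted p = 0.054 and 0.12), and OASL at 240 min with a floor at the 75th percentile, where IFIT1 and others kept too few probesets. With 64 added before the log, OASL and IFI44 at 240 min and GBP1 at 480 min were lost. With only the arrays of the 2 times, OAS1 and STAT2 at 120 min, IFI44 at 240 min and OAS1 from 60 to 120 min were lost. Leaving out, at each time, the array farthest in index, an alternative chosen after seeing the data, lost IRF1 at 40 min, OASL at 240 min and STAT2 at 120 min (-0.20, adjusted p = 0.37). The cause of these losses was not tested.

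Counts of members called moved by more than 1.5 times as follows. With the array index as a covariate there were 3 at 40 min, 11 at 480 min, 4 from 60 to 120 min, 1 from 120 to 240 min and 4 from 240 to 480 min. The shares of all genes called in that fit were, in the same order, 4.11%, 26.8%, 6.8%, 3.03% and 3.82%. Counts under the other alternatives, the left-out arrays and the replicate block are given without that share. They therefore do not tell a shift in the members from a shift in all genes. An intensity trend in the variance gave 1 from 120 to 240 min. Only the arrays of the 2 times gave 2 at 120 min, 0 from 60 to 120 min and 2 from 240 to 480 min. No floor gave 1 at 20 min, 1 at 60 min and 1 from 120 to 240 min. The stricter floor gave 4 at 60 min, 2 from 240 to 480 min and a median of -0.18 at 480 min, and turned SAMD9L at 20 min to -0.017. The mean over probesets gave 1 at 20 min, 3 at 40 min, 4 at 60 min, 1 from 120 to 240 min, 2 from 240 to 480 min and a median of -0.0074 at 20 min. A constant of 1 gave 1 from 120 to 240 min and 2 from 240 to 480 min.

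Leaving out 1 array gave 0 to 3 members called at 20 min, 0 to 2 at 40 min, 1 to 3 at 60 min, 2 to 5 at 120 min, 4 to 7 at 240 min, 4 to 6 at 480 min, 1 to 3 from 60 to 120 min, 0 to 2 from 120 to 240 min, 1 to 2 from 240 to 480 min and 9 to 13 passing the F-test. Medians over the members then ran from 0.01 to 0.10 at 20 min, 0.04 to 0.09 at 40 min, 0.01 to 0.08 at 60 min, 0.01 to 0.06 at 120 min, -0.03 to 0.03 at 240 min and -0.12 to -0.06 at 480 min. With the title letter as a replicate block, 5 members were called at 240 min, 5 at 480 min and 10 passed the F-test, with OASL at 240 min (adjusted p = 0.057) and GBP1 at 480 min (adjusted p = 0.053) lost. Arrays of the same letter deviated together with correlations of -0.54 to 0.56 (19 of 63 pairs over 0.1), and 6 of 21 arrays correlated best with their own letter. Whether a letter marks a shared culture or batch is not given in the labels and cannot be told from these correlations.

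The limits are 3 arrays a time, no arrays without EGF after 0 min, and the near relatives of the GBP, IFIT and OAS genes. Signal was also near the floor in IFIT1, IFIT2, IFIT3, IFI44, CXCL10 and CXCL11, and at 0 min in CD274 and IFNE.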
